A study of Rattus norvegicus with 6 samples.

Results

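The 7 genes described here belong to the Pomc lineage of the pituitary, that is, to corticotrophs of the anterior lobe and melanotrophs of the intermediate lobe. They were listed by name, with no threshold on a measured value, and they are Pomc, Tbx19, Pax7, Neurod1, Crhr1, Avpr1b and Crhbp. Of the 33294 gene symbols in the files, 6 matched a member directly. Avpr1b is listed under the placeholder symbol LOC100909648 and was matched by its RefSeq gene ID. All 7 were among the 17292 genes with enough counts to be tested.

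The libraries were made from pituitary gland RNA of male Sprague-Dawley rats aged 11 weeks, 3 in the nicotine group and 3 in the control group. The dams of the nicotine group carried a subcutaneous osmotic mini-pump with nicotine tartrate in saline, at 6 mg/kg per day, and the dams of the control group carried the same pump with saline alone. The pump was rated for 28 days and birth followed 13 days after its placement, on gestational day 19, so the pump could have gone on releasing after birth. All the animals thus shared a pump in the dam, and nothing in the labels says which litters they came from. The p-values below treat these 6 animals as independent and set the group difference against the spread within the groups. If animals of a group shared a litter, the p-values could be too small. The comparison asks how exposure of the dam to nicotine relates to transcript levels in the pituitary of the adult son.

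Pomc encodes proopiomelanocortin, a precursor protein that is cut into ACTH in corticotrophs and further, into alpha-MSH and beta-endorphin, in melanotrophs. Tbx19, also called Tpit, is the T-box factor that commits cells to both fates, Pax7 is the selector factor that sets melanotrophs apart from corticotrophs, and Neurod1 is a basic helix-loop-helix factor that acts on the Pomc promoter. Corticotrophs receive CRH through the receptor encoded by Crhr1 and vasopressin through the V1b receptor encoded by Avpr1b, and both inputs raise ACTH release under stress. Crhbp encodes a secreted protein that binds CRH and limits its action on the receptor. Levels are given as CPM, the counts per 1e+06 counts of the library, on library sizes scaled by the TMM method. Transcript lengths were not used, so levels are compared between libraries and not between genes.

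The start of Pomc is shown because factors of the list, Neurod1 with its E-box partners and Tbx19, are known to act on the Pomc promoter. The bases searched overlap the annotated gene, and sites farther upstream would be missed. Whether any match below is a site that these factors use was not tested. The 4 stretches below are each 30 bases of the sense strand from RefSeq, assembly GRCr8, and the capitals mark the letters that matched a motif searched on both strands of the 250 bases before the transcription start.
Pomc E-box, chr6:32659108-32659137: gaccaccggggcCAGGTGtgcgcttcagcg
Pomc E-box, chr6:32659163-32659192: actttccaggcaCATCTGctgtgcgcgcag
Pomc nuclear receptor hexamer, chr6:32659272-32659301: gcgctgccaggaAGGTCAcgtccaaggctc
Pomc TATA motif, chr6:32659309-32659338: caaccctgcaggTATAAAagaagagagaag

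The letters CANNTG, the E-box that basic helix-loop-helix factors bind, had at least 1 match in 65.5% of the 33469 promoter windows of this length. A match at Pomc is thus common, and the share of windows with 2 matches was not counted. AGGTCA was found in 14.1% of windows and TATAAA in 12.9%. The T-box letters TCACACC (3.22% of windows), the Pitx letters TAATCC (6.34%), the longer NR4A letters AAAGGTCA (1.24%), which contain AGGTCA, and the CRE letters TGACG (18.2%) had no match in this window of Pomc, which says only that these letters are not in these 250 bases. Among the other members, Tbx19 and Neurod1 held 1 E-box each, Avpr1b held 1 Pitx match, Crhbp held 1 AGGTCA and 1 TGACG, and Tbx19 also held TATAAA on the other strand. The windows of Pax7 and Crhr1 held none of the motifs.

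The totals ran from 28318383 counts in control replicate 1 to 85977002 in nicotine replicate 2, and the members differed widely in the counts behind them, from 1221119 to 2808468 for Pomc through 500 to 4412 for Pax7 and 55 to 320 for Neurod1 down to 6 to 46 for Crhbp. Pomc ranked between the first and the third place among all genes by count in every library, beside the other pituitary hormone genes Gh1 (52429 to 115788 CPM) and Prl (17547 to 38038 CPM). Although the extraction text in the labels describes testis, the germ cell genes Prm1, Prm2, Tnp1, Ddx4, Acrv1 and Sycp3 summed to only 0.0217 to 0.0849 CPM in the 6 libraries, Ddx4 and Acrv1 being at 0 counts in each. Nicotine replicate 2 and control replicate 3 stood apart in several members, as described for each gene. In a bulk sample a lower level can mean fewer cells of a type or less RNA per cell, and these cannot be told apart.

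None of the 7 members was called between the groups by the quasi-likelihood test of edgeR (adjusted p under 0.1 and fold over 1.5), where 0% of the genes tested were called. None had an unadjusted p under 0.05, against 6.14% of the genes tested, and for none of them did the libraries of one group lie wholly above the other, against 11.3% of the genes tested. DESeq2 with the same thresholds called 0 members and 0.339% of all its genes. The point estimates were positive for 4 members and negative for 3, and the median of the 7 log2 fold changes was 0.13, beside 0.007 over all genes tested. The spread within a group was wide for several members, and for Pax7 it exceeded that of 98.5% of the genes tested and for Tbx19 that of 95.1%.

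**Figure D1:**
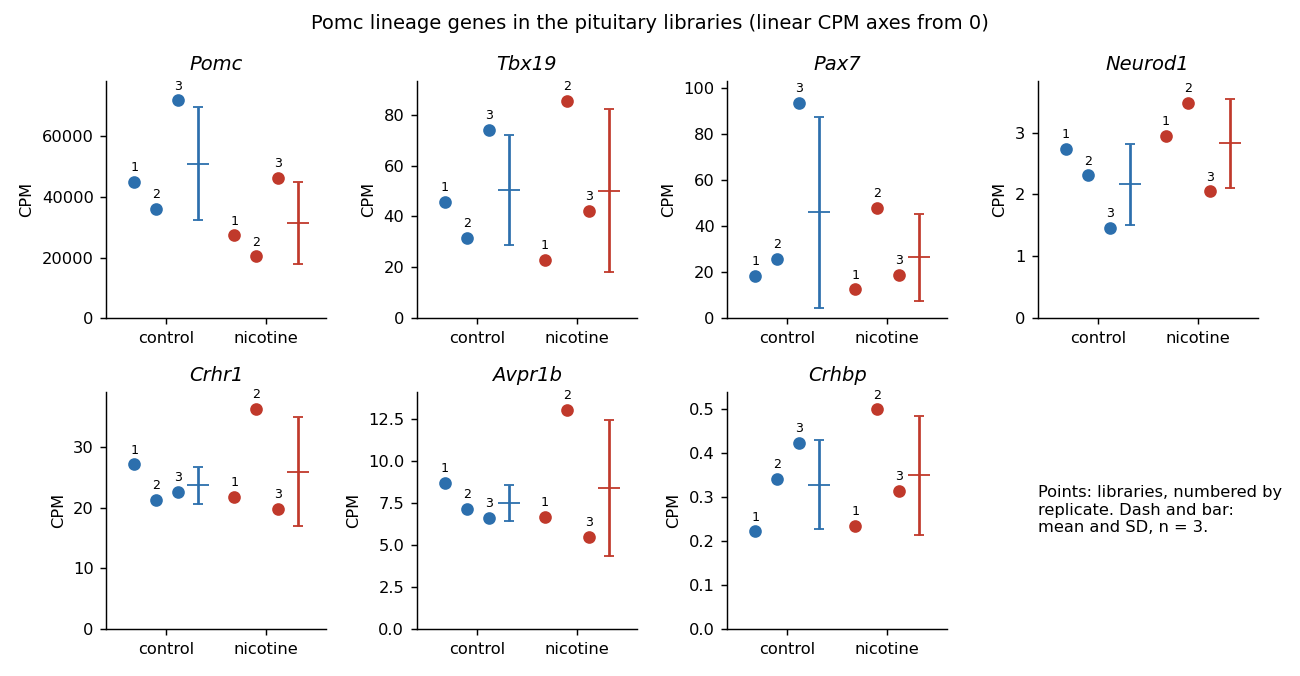
Level of each member in CPM (linear axes from 0) in the control and nicotine libraries. Points are single libraries numbered by replicate, and the dash and bar give the mean and SD of the 3 libraries. The groups overlap in all 7 panels, with nicotine replicate 2 highest in 5 of them and control replicate 3 highest for Pomc and Pax7.

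Pomc, the hormone gene of both cell types, was at 27330, 20412 and 46404 CPM in nicotine replicates 1, 2 and 3 and at 45091, 36103 and 71827 CPM in control replicates 1, 2 and 3. Nicotine replicates 1 and 2 were below every control, but nicotine replicate 3 was above control replicates 1 and 2, and control replicate 3 was far above all others. The group means were 31382 ± 13461 CPM with nicotine against 51007 ± 18582 CPM in controls (mean ± SD, n = 3 each).

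The log2 fold change of Pomc was -0.70 (standard error 0.69, 95% interval -2.22 to 0.82, edgeR adjusted p = 0.854). Its interval held changes in either direction, so neither a change nor a lack of change was shown. The exact two-sided permutation test over the 6 libraries gave p = 0.3, where 3 against 3 cannot go below 0.1. With each library left out it stayed negative, from -1.10 without nicotine replicate 3 to -0.37 without control replicate 3. DESeq2 gave the same size, -0.70, with a smaller unadjusted p of 0.0197 and an adjusted p of 0.638, and voom with quality weights gave -0.41. The standard error of Pomc, and so the width of its interval, depended on the fit. It was 0.30 with DESeq2, 0.50 with library sizes alone and 0.97 with the replicate number as a block. It was 0.39 without a filter and with an older quasi-likelihood fit of edgeR, whose adjusted p was 0.848.

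In shares of all counts, Pomc took up 2.79%, 2.19% and 4.46% in nicotine replicates 1, 2 and 3 and 4.31%, 3.51% and 7.33% in control replicates 1, 2 and 3. At this depth counting error was small: the 95% Wilson interval was 2.18% to 2.19% in nicotine replicate 2 and 7.32% to 7.34% in control replicate 3, and it covers counting error only.

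The order of the libraries by Pomc was close to that by blood cell genes, whose lists were among several compared. By rank it was as close to that by the thyrotroph markers Tshb, Trhr and Dio2 (Spearman rho 0.83, Pearson r 0.73). Other lists ran the other way, such as the gonadotroph markers (r -0.75) and the hypothalamic neuron markers (r -0.78). The 3 erythroid markers Hbb, Hba-a1 and Alas2 summed to 2508 to 7822 CPM after nicotine and 6604 to 14132 CPM in controls, with 0 of 3 called, 3 of 3 at an unadjusted edgeR p under 0.05 on the lower side (background 3.01%) and none of them at 0. Across the 6 libraries the log2 CPM of Pomc and of this sum had a Pearson r of 0.93 and a Spearman rho of 0.83, and r was 0.87 without nicotine replicate 2 and 0.89 without control replicate 3. The 4 leukocyte markers (Ptprc, Cd68, Aif1 and Cd3e) summed to 18.5 to 33.8 CPM after nicotine and 34.1 to 44.96 CPM in controls, with 0 of 4 called and none at 0. Of these, 2 (Ptprc and Aif1) had an unadjusted edgeR p under 0.05 on the lower side (background 3.01%). Ptprc, and Alas2 among the erythroid markers, were lower without overlap (background 5.14%). The leukocyte sum had an r of 0.95 and a rho of 0.83 with Pomc. All these values come from the same 6 libraries and scaling, and the part of blood content in the Pomc values was not tested.

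Among the 14505 genes with a mean of at least 1 CPM, Kctd8 and Cpne4 were among those whose log2 CPM followed Pomc most closely over the 6 libraries, each with a Pearson r of 0.99 and a Spearman rho of 0.94. Kctd8, which encodes an auxiliary subunit of GABA B receptors, was at 4.50, 3.63 and 6.53 CPM in nicotine replicates 1, 2 and 3 and at 6.68, 5.05 and 10.04 CPM in control replicates 1, 2 and 3. As for Pomc, nicotine replicate 2 was the lowest and control replicate 3 the highest. Without these 2 libraries r was 0.97 for Kctd8 and 0.95 for Cpne4. With so few libraries, 39 genes had an r over 0.95 with Pomc.

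Tbx19, the factor shared by both lineages, was at 23.0, 85.4 and 42.1 CPM in nicotine replicates 1, 2 and 3 and at 45.6, 31.6 and 74.0 CPM in control replicates 1, 2 and 3. The nicotine group held both the lowest and the highest library, and the controls lay between them. The group means were nearly equal, 50.2 ± 32.0 CPM with nicotine against 50.4 ± 21.6 CPM in controls (mean ± SD, n = 3 each). The log2 fold change of Tbx19 was -0.003 (standard error 0.42, 95% interval -0.92 to 0.91, edgeR adjusted p = 0.999), and the exact permutation p was 0.9. The interval still held changes of nearly 1 on the log2 scale in either direction, so a lack of change was not shown. Leaving out nicotine replicate 2 gave -0.64 and leaving out control replicate 3 gave 0.39.

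The genes most like Tbx19 over the libraries were Nlgn1, which encodes a synaptic adhesion protein (r 0.996), Dlgap5, a gene of the mitotic spindle (r 0.993), and Vax1, a homeobox gene (r 0.990), each with a rho of 1. After leaving out nicotine replicates 1 and 2, the libraries farthest from the median of Tbx19, r was 0.992, 0.985 and 0.972. In all, 84 genes had an r over 0.95 with Tbx19.

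Pax7, the melanotroph selector, was at 12.5, 47.9 and 18.8 CPM in nicotine replicates 1, 2 and 3 and at 18.5, 25.7 and 93.6 CPM in control replicates 1, 2 and 3. Control replicate 3 was by far the highest, nicotine replicate 2 came next, and the other 4 libraries lay at 12.5 to 25.7 CPM, the highest library being 7.49 times the lowest. The means were 26.4 ± 18.9 CPM with nicotine against 45.9 ± 41.5 CPM in controls (mean ± SD, n = 3 each), an SD nearly as large as the mean in the control group.

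The log2 fold change of Pax7 was -0.79 (standard error 0.59, 95% interval -2.09 to 0.50, edgeR adjusted p = 0.840), with an exact permutation p of 0.6. Its direction rested on control replicate 3, without which it was 0.26. It stayed negative without each of the other libraries, from -1.57 without nicotine replicate 2 (edgeR adjusted p = 0.658) to -0.46 without nicotine replicate 1.

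The genes most like Pax7 over the libraries were Vkorc1l1, Tll1 and Glt1d1, with r from 0.986 to 0.988 and a rho of 0.94 each. Tll1, which encodes an extracellular protease of the tolloid family, was at 12.9, 36.2 and 19.7 CPM in nicotine replicates 1, 2 and 3 and at 22.1, 24.3 and 72.8 CPM in control replicates 1, 2 and 3. Without control replicate 3 and nicotine replicate 2, r was 0.87 for Vkorc1l1, 0.94 for Tll1 and 0.87 for Glt1d1. There were 34 genes with an r over 0.95.

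Neurod1, the E-box factor, was at 2.95, 3.47 and 2.05 CPM in nicotine replicates 1, 2 and 3 and at 2.73, 2.31 and 1.45 CPM in control replicates 1, 2 and 3. Nicotine replicates 1 and 2 were above every control, whereas nicotine replicate 3 was below control replicates 1 and 2. The means were 2.82 ± 0.721 CPM (SD, n = 3) and 2.16 ± 0.652 CPM (SD, n = 3), and the log2 fold change was 0.40 (standard error 0.32, edgeR adjusted p = 0.841). The exact permutation p was 0.4. The value was positive under every alternative setting and every left-out library, from 0.19 to 0.59 over the left-out libraries and from 0.21 in voom with quality weights to 0.64 with counts thinned to the smallest library, without passing the threshold in any.

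The order of the libraries by Neurod1 was nearly the reverse of that by Pomc. Pomc and Neurod1 had a Pearson r of -0.92 and a Spearman rho of -0.94 over the 6 libraries, with r at -0.88 without nicotine replicate 2 and -0.84 without control replicate 3. These points share their libraries and scaling, and the counts of Pomc are part of the total by which every gene is divided. Of 21 pairs of members compared, this was the most negative. Neurod1 also had an r of -0.93 with the summed erythroid markers.

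Crhr1, the CRH receptor, was at 21.7, 36.3 and 19.7 CPM in nicotine replicates 1, 2 and 3 and at 27.1, 21.3 and 22.6 CPM in control replicates 1, 2 and 3. Nicotine replicate 2 was the highest, and the other nicotine libraries lay near or under the lower controls. For Crhr1 the log2 fold change came to 0.14 (standard error 0.23, 95% interval -0.38 to 0.65, edgeR adjusted p = 0.921), with an exact permutation p of 0.9. This was the narrowest interval of the 7 members, and leaving out nicotine replicate 2 gave a log2 fold change of -0.19, voom with quality weights -0.059.

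Avpr1b, the vasopressin V1b receptor, was at 6.66, 13.0 and 5.49 CPM in nicotine replicates 1, 2 and 3 and at 8.68, 7.13 and 6.63 CPM in control replicates 1, 2 and 3. The pattern was that of Crhr1, with nicotine replicate 2 highest, control replicate 1 next and nicotine replicate 3 lowest. The log2 difference of Avpr1b was 0.18 (standard error 0.31, edgeR adjusted p = 0.921), with an exact permutation p of 0.9, and -0.30 without nicotine replicate 2, -0.15 in voom with quality weights and 0.097 with counts thinned to the smallest library. Crhr1 and Avpr1b had the highest r of the 21 pairs, 0.98, with a rho of 0.77, and r was 0.92 without nicotine replicate 2.

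Crhbp, the binding protein of CRH, was counted only 11, 46 and 19 times in nicotine replicates 1, 2 and 3 and 6, 18 and 16 times in control replicates 1, 2 and 3. The exact 95% intervals of these counts, which cover counting error only, were as wide as 2.20 to 13.1 in control replicate 1 and 33.7 to 61.4 in nicotine replicate 2. In CPM the libraries ran from 0.222 in control replicate 1 to 0.499 in nicotine replicate 2, and the group means were 0.349 ± 0.136 CPM with nicotine against 0.328 ± 0.101 CPM in controls (mean ± SD, n = 3 each). The fitted difference was 0.13 on the log2 scale (standard error 0.48, edgeR adjusted p = 0.967), and it was -0.29 without nicotine replicate 2, -0.035 without control replicate 1, -0.096 in voom with quality weights and 0.35 with counts thinned to the smallest library.

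**Figure D2:**
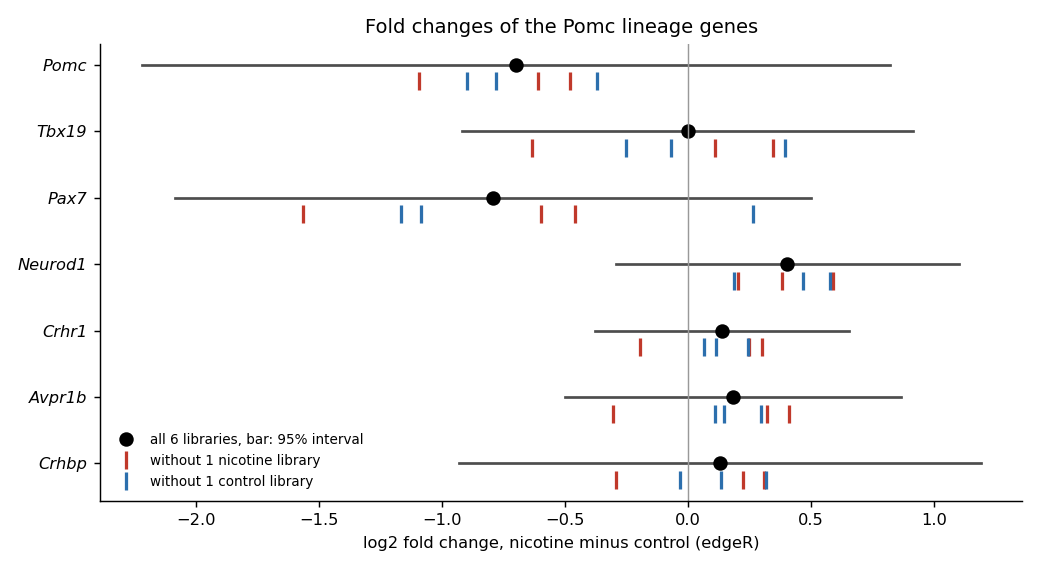
Log2 fold change of each member, nicotine minus control, from edgeR, with the 95% interval as a bar and, below it, the value without each library in turn (red ticks for a nicotine library, blue for a control library). Every interval spans 0, and ticks lie on both sides of 0 for all members but Pomc, whose ticks are negative, and Neurod1, whose ticks are positive.

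Ratios between members within a library do not depend on the scaling of the libraries, and 5 were compared by exact two-sided permutation tests. They are ratios of counts not divided by transcript length, so only their change between libraries can be read. The ratio of Pax7 to Tbx19, a measure of the melanotroph selector against the factor of both lineages, was 0.544, 0.561 and 0.447 in nicotine replicates 1, 2 and 3 and 0.405, 0.816 and 1.27 in control replicates 1, 2 and 3. The nicotine libraries lay close together, inside the wide range of the controls. The difference was -0.54 on the log2 scale (exact permutation p = 0.4, and 1 after adjustment over the 5 ratios). It was -0.98 without control replicate 1 and -0.16 without control replicate 3.

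The ratio of Pomc to Tbx19 was 1189, 239 and 1101 in nicotine replicates 1, 2 and 3 and 988, 1143 and 970 in control replicates 1, 2 and 3. In 5 libraries it was nearly constant, with nicotine replicate 2 alone far lower, since that library was the lowest in Pomc and the highest in Tbx19. The log2 difference was -0.60 (exact permutation p = 0.9) and 0.15 without nicotine replicate 2. The log2 CPM of Pomc and Tbx19 had an r of 0.13 over the 6 libraries, of 0.995 without nicotine replicate 2 and of -0.33 without control replicate 3.

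The ratio of Avpr1b to Crhr1 varied least, from 0.278 to 0.359 after nicotine and from 0.294 to 0.336 in controls, with a log2 difference of -0.01 (exact permutation p = 1), which became 0.070 on leaving out nicotine replicate 3 and -0.11 on leaving out nicotine replicate 2. The ratio of Crhr1 to Tbx19 ranged from 0.425 to 0.946 after nicotine and from 0.306 to 0.674 in controls (log2 difference 0.21, exact permutation p = 0.7), and the difference turned to -0.15 without nicotine replicate 1 and to -0.14 without control replicate 3. For Crhbp to Crhr1 the ranges were 0.0112 to 0.0163 and 0.00885 to 0.0193 (log2 difference -0.05, exact permutation p = 0.9), and the difference was 0.18 without control replicate 3 and -0.38 without control replicate 1. The adjusted p of each of the 5 ratios was 1.

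**Figure D3:**
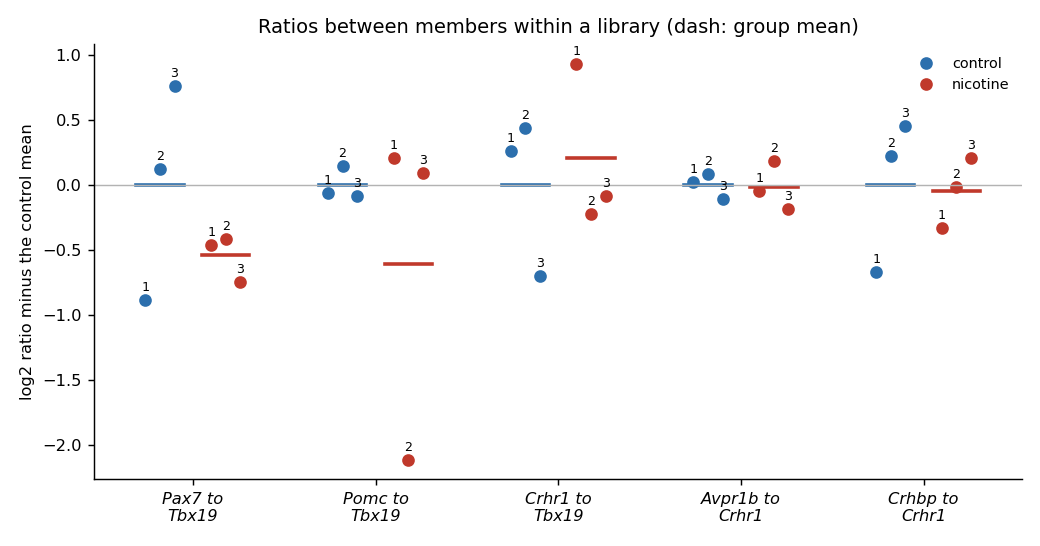
Log2 ratio of the counts of a pair of members in each library, minus the mean of the 3 control libraries, with points numbered by replicate and a dash for the group mean. The groups overlap for all 5 ratios, and nicotine replicate 2 stands alone at the bottom for Pomc to Tbx19.

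Among genes enriched in melanotrophs, control replicate 3 was the highest library, as for Pax7, in Pcsk2, Drd2, Oacyl, Esm1 and Pkib but not in Megf11 or Scrt2. Of 8 such genes 7 were tested, 0 were called, 0 and 2 had an unadjusted edgeR p under 0.05 on the higher and the lower side (background 3.13% and 3.01%), 1 (Pkib, named after its values were seen) had groups that did not overlap, on the lower side (background 5.14%), and the median log2 fold change was -0.16. Oacyl was at 21.2, 69.7 and 34.9 CPM in nicotine replicates 1, 2 and 3 and at 42.98, 36.1 and 201 CPM in control replicates 1, 2 and 3, with a log2 fold change of -1.15 (edgeR adjusted p = 0.813). Pcsk2, the proprotein convertase that cuts ACTH to alpha-MSH in melanotrophs, was at 86.4, 136 and 119 CPM after nicotine and at 140, 127 and 278 CPM in controls (log2 fold change -0.67, edgeR adjusted p = 0.806). Drd2, the dopamine receptor that restrains melanotrophs and lactotrophs, had a log2 fold change of -0.16 (edgeR adjusted p = 0.923). The positive estimates of the list were those of Megf11 (0.22), highest in nicotine replicate 2, and Scrt2 (0.25), highest in nicotine replicate 1. These genes, with Esm1, were named after their values were seen.

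The log2 CPM of Pax7 and of the summed melanotroph-enriched genes had an r of 0.91 and a rho of 0.83 over the 6 libraries, and r was 0.97 without nicotine replicate 2 and 0.72 without control replicate 3. The same sum had an r of 0.74 with Tbx19, 0.69 with Pomc, 0.60 with Crhbp, 0.033 with Crhr1, -0.05 with Avpr1b and -0.76 with Neurod1. Without nicotine replicate 2 it was 0.94 with Tbx19 and 0.96 with Pomc, so the likeness was not particular to Pax7. The sum ranged from 219 to 351 CPM after nicotine and from 309 to 710 CPM in controls. The median log2 fold change of the list was -0.52 without nicotine replicate 2, -0.47 without nicotine replicate 3, -0.35 and -0.44 without control replicates 1 and 2, and 0.097 without control replicate 3, which turned its direction.

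The neural lobe borders the intermediate lobe where melanotrophs lie. Of 6 pituicyte markers of that lobe, 0 were called, 3 had an unadjusted edgeR p under 0.05 on the higher side (Nkx2-1, Rax and Col25a1, background 3.13%), 2 were higher without overlap (Nkx2-1 and Col25a1, background 6.12%), none was at 0, and the median log2 fold change was 0.82. Control replicate 3, the highest in Pax7, was the lowest in these 3, named after their values were seen: Nkx2-1 (0.185 CPM), Rax (0.291 CPM) and Col25a1 (0.925 CPM), whose other 5 libraries lay at 1.36 to 4.70, 2.97 to 11.2 and 3.40 to 14.2 CPM. Nicotine replicate 2 was the highest in these 3 and second in Pax7. The other 3 markers had other orders: Gfap was lowest in control replicate 1 and highest in control replicate 2, and Slc1a3 and Vim were highest in nicotine replicate 3, Vim being lowest in control replicate 1 and Slc1a3 in control replicate 3. The sum of the 6 markers was 170 to 280 CPM after nicotine, lowest in nicotine replicate 1, and 178 to 221 CPM in controls. How much of each lobe a dissected gland held, and its part in the spread of Pax7, was not tested.

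**Figure D4:**
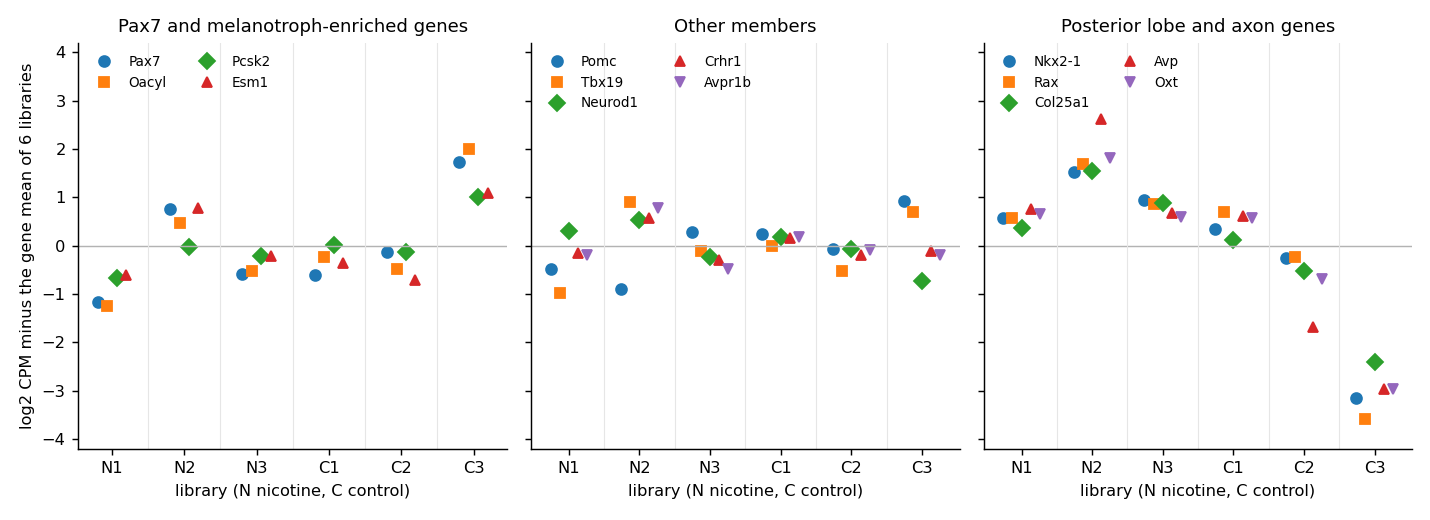
Log2 CPM minus the gene's mean over the 6 libraries (N nicotine, C control) for Pax7 with melanotroph-enriched genes, for the other members with at least 1 CPM, and for genes of the posterior lobe and its axons. The panels show 3 of the 7 melanotroph-enriched genes tested and 3 of the 6 pituicyte markers, picked with their values in view. Control replicate 3 is the highest library for all 4 genes in the left panel and the lowest for all 5 in the right panel, and Pomc and Neurod1 lie on opposite sides of 0 in 4 of the 6 libraries.

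Of 7 corticotroph-enriched genes 5 were tested, 0 were called, 0 had an unadjusted p under 0.05 and the median log2 fold change was -0.04. The sum of the list was 7.62 to 8.44 CPM after nicotine and 7.46 to 8.27 CPM in controls. The most abundant were Cdh8 (log2 fold change -0.04), Tnnt1 (0.20) and Pgf (0.06), all at edgeR adjusted p above the threshold. The sum did not follow the members of the lineage over the 6 libraries. Its Pearson r was -0.14 with Pomc, -0.63 with Tbx19, -0.66 with Crhr1 and -0.59 with Avpr1b. The members did not all follow one another either, with an r of 0.13 between Pomc and Tbx19. The tested genes were low, the highest mean over all libraries being 2.88 CPM for Cdh8. These correlations cannot decide whether the sum measures corticotroph content, and it is not read as such a measure.

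Among the CRH and vasopressin family, Crh, Ucn, Ucn2, Ucn3 and Avpr2 did not pass the filter on low counts, and 5 of 10 genes were tested. No gene was called, 2 were higher at an unadjusted p under 0.05 and with groups that did not overlap (background 3.13% and 6.12%), and the median log2 fold change of the 5 was 0.76. These were Avp and Oxt, the transcripts of the vasopressin and oxytocin neurons whose axons end in the posterior lobe. Avp was at 35.7, 129 and 33.6 CPM in nicotine replicates 1, 2 and 3 and at 32.3, 6.56 and 2.72 CPM in control replicates 1, 2 and 3. Control replicate 1 was close to nicotine replicates 1 and 3, while nicotine replicate 2 lay far above and control replicates 2 and 3 far below. The estimates were log2 fold changes of 2.28 for Avp (standard error 0.77, edgeR adjusted p = 0.760) and of 1.58 for Oxt (standard error 0.63, edgeR adjusted p = 0.806). Crhr2, the second CRH receptor, had a log2 fold change of 0.55 (edgeR adjusted p = 0.827).

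Of 21 regulators of Pomc transcription and of the lineage, 20 were tested and Neurod2 was at 0 in every library. None was called, and the median log2 fold change was -0.05. Smarca4 was higher and Neurod4 lower at an unadjusted edgeR p under 0.05 (background 3.13% and 3.01%). Smarca4 and Pitx1 (both named after their values were seen) were higher without overlap (background 6.12%). Crem, which encodes cyclic AMP response modulators, differed most from rat to rat among the 3 most abundant, with 468, 75.1 and 83.6 CPM after nicotine and 104, 311 and 82.7 CPM in controls (log2 fold change 0.33, edgeR adjusted p = 0.934). Neurod4, a relative of Neurod1, was at 73.0, 67.2 and 83.7 CPM after nicotine and 146, 81.2 and 103 CPM in controls (log2 fold change -0.56, edgeR adjusted p = 0.785), where only nicotine replicate 3 overlapped the controls. Nr4a1, the nuclear receptor that carries the CRH signal to Pomc, is named after its values were seen for the most negative estimate of the list. Its levels were 18.6, 11.8 and 36.7 CPM after nicotine and 111, 30.6 and 18.2 CPM in controls (log2 fold change -1.25, edgeR adjusted p = 0.807), control replicate 1 being the highest by far.

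Cytokine, growth factor and steroid inputs to corticotrophs gave 11 tested genes of 12, 0 calls and a median log2 fold change of 0.12. At an unadjusted edgeR p under 0.05, 1 gene was higher (Fkbp5, background 3.13%) and 1 lower (Socs3, background 3.01%). Socs3 was named after its values were seen. Il6st, the shared receptor subunit for LIF and interleukin 6, had a log2 fold change of 0.07 and Il6r, the interleukin 6 receptor, of 0.26. Fkbp5, a target of the glucocorticoid receptor that dampens it, was at 60.6, 101 and 69.5 CPM in nicotine replicates 1, 2 and 3 and at 56.3, 52.4 and 54.6 CPM in control replicates 1, 2 and 3. These groups did not overlap (background 6.12% on the higher side), and the log2 fold change was 0.50 (standard error 0.19, edgeR adjusted p = 0.7996).

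All 7 POMC processing genes were tested and 0 were called, with a median log2 fold change of -0.08. Pcsk2 had an unadjusted edgeR p under 0.05 on the lower side (background 3.01%), and Scg5 was lower without overlap. The abundant Cpe (0.01) and Pam (0.10), enzymes that trim and amidate peptides, had small fold changes, both with libraries that overlapped. Scg5, which encodes the 7B2 chaperone of Pcsk2, was at 974, 760 and 988 CPM after nicotine and at 1053, 1002 and 1045 CPM in controls, which did not overlap (background 5.14% on the lower side), with a log2 fold change of -0.19 (edgeR adjusted p = 0.868). Pcsk1, the convertase that releases ACTH, had a log2 fold change of -0.13 (edgeR adjusted p = 0.899).

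Of the melanocortin receptors and their modulators 3 of 9 were tested, 0 were called and the median log2 fold change was -0.18. The receptor genes Mc1r to Mc5r and Asip were too low to test, the highest mean over all libraries being 0.070 CPM for Mc4r. Mrap2, an accessory protein of these receptors, was at 11.2 to 15.6 CPM after nicotine and 13.4 to 16.8 CPM in controls (log2 fold change -0.18, edgeR adjusted p = 0.868). Agrp (0.44) and Mrap (-0.49) were lower in abundance and also overlapped.

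**Figure D5:**
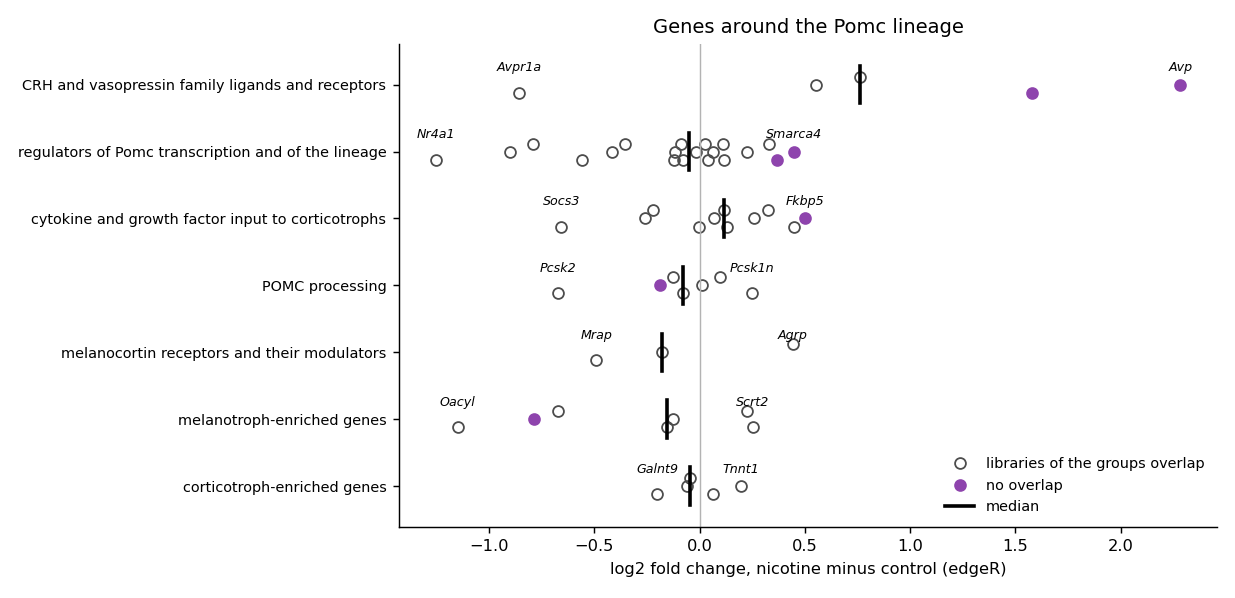
Log2 fold changes, nicotine minus control, of the tested genes in 7 lists around the Pomc lineage, with a black bar at each list's median, filled points for genes whose groups did not overlap and the name of the outermost gene on each side. No gene was called, and Avp, at 2.28, is the outermost point.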

How the data were processed

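Total RNA of pituitary glands was sequenced in 3 nicotine and 3 control libraries. The authors prepared directional libraries, mapped paired-end reads to the rat genome rn7 with HISAT2 (2.1.0 per the submitters' processing notes) and counted them per gene with FeatureCounts, using the ncbiRefSeq annotation of UCSC. The deposited values are raw counts per gene symbol, not normalized. The strand setting, the treatment of multi-mapping reads and whether reads or pairs were counted are not given in the sources used here. The number of columns belonging to other samples was 0.

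edgeR 4.0.16, DESeq2 1.42.0 and limma 3.58.1 were run in R 4.3.3. Genes were kept by filterByExpr and scaled by TMM factors, which were 0.957 to 1.07, and nicotine was set against control in the quasi-likelihood test of edgeR, with no covariate and with Benjamini-Hochberg adjustment over all 17292 genes tested. Calls needed an adjusted p under 0.1 together with a 1.5-fold change, as in the study's methods. Correlations used log2 CPM with a prior count of 2, and ratios used counts plus 0.5. The members and lists were chosen with earlier results of these data known. Named are the members, the 3 most abundant tested genes of each related list, the 3 genes most like Pomc, Tbx19 and Pax7, and markers that a result turns on, and other genes named (Nr4a1, Pcsk1 and those given for overlap) were picked with their values in view. Some genes that this rule names are not reported here. The alternatives were DESeq2, RLE scaling, library sizes alone, no filter, 10 counts in every library, library sizes without genes over 1% of counts, voom with quality weights, thinning to the smallest library, the replicate number as a block, other thresholds and each library left out. The older quasi-likelihood fit was chosen after seeing the data.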

Additional observations from a re-analysis of the deposited data

How the results depend on the processing

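The number of members called was 0 under every setting and with each library left out. Over all genes, where the reported fit called 0, DESeq2 called 61, library sizes alone, voom with quality weights and thinned counts called 1 each, the fit without a filter called 2, and leaving out a library gave 0 to 9 (9 without nicotine replicate 3, 4 without control replicate 2 and 1 without nicotine replicate 2). Whether the replicate numbers pair the libraries is not known. Same-numbered libraries had correlations of deviations from the group means of 0.0264, -0.198 and -0.0785, which cannot decide it with 3 libraries per group. With the replicate block 2 genes were called. Outside the left-out libraries, 63 fold changes of members kept their sign and 6 turned: Tbx19 from -0.003 to 0.0035 with DESeq2, 0.056 with library sizes alone and 0.013 without a filter, and in voom with quality weights Crhr1 to -0.059, Avpr1b to -0.15 and Crhbp to -0.096. Thinning turned the ratio of Crhbp to Crhr1 to 0.12. The list medians moved for the CRH and vasopressin family to -0.23 with DESeq2 and -0.12 without a filter, which add genes at a few counts, and for melanocortin receptors to 0.29 with thinned counts. The causes were otherwise not tested. Crhbp has no value where 10 counts were required in every library. With each library left out, log2 values ranged from -1.10 to -0.37 for Pomc, -0.64 to 0.39 for Tbx19, -1.57 to 0.26 for Pax7, 0.19 to 0.59 for Neurod1, -0.19 to 0.30 for Crhr1, -0.30 to 0.41 for Avpr1b and -0.29 to 0.31 for Crhbp. For ratios they were -0.98 to -0.16 for Pax7 to Tbx19, -1.01 to 0.15 for Pomc to Tbx19, -0.15 to 0.43 for Crhr1 to Tbx19, -0.11 to 0.070 for Avpr1b to Crhr1 and -0.38 to 0.18 for Crhbp to Crhr1. List medians ranged from 0.28 to 1.08 for the CRH and vasopressin family, -0.15 to 0.060 for regulators, 0.02 to 0.21 for cytokine input, -0.17 to 0.10 for POMC processing, -0.20 to 0.10 for melanocortin receptors, -0.52 to 0.10 for melanotroph-enriched and -0.24 to 0.27 for corticotroph-enriched genes. Thinning to the smallest library moved Neurod1 from 0.40 to 0.64, Crhbp from 0.13 to 0.35 and Avpr1b from 0.18 to 0.097, and voom moved Pomc to -0.41 and Neurod1 to 0.21. Genes that did not pass the filter had too few counts for a test.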

Other observations

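Among the other hormone cells, the gonadotroph markers Lhb, Fshb, Gnrhr and Nr5a1 summed to 708 to 1849 CPM after nicotine and 523 to 826 CPM in controls, with 0 of 4 called and 3 (Lhb, Gnrhr and Nr5a1) higher without overlap, against 6.12% of the genes tested. Nicotine replicate 2, the highest library in Tbx19, Neurod1, Crhr1, Avpr1b and Crhbp, was also the highest in this sum. The same library was the highest in the somatotroph and hypothalamic neuron sums and the lowest in the thyrotroph, leukocyte and erythroid sums. The somatotroph sum was 52875 to 116205 CPM after nicotine and 52926 to 72431 CPM in controls, and the lactotroph gene Prl was at 17547 to 37706 CPM and 25328 to 38038 CPM. In both groups of hormone cells the libraries overlapped, and Prl, like Pomc, was lowest in nicotine replicate 2. The folliculostellate and stem cell markers summed to 250 to 352 CPM after nicotine and 240 to 293 CPM in controls, and the thyrotroph markers to 555 to 2320 CPM and 1206 to 1488 CPM. The endothelial markers summed to 102 to 176 CPM and 80.6 to 112 CPM, with 2 of 4, Pecam1 and Plvap, higher without overlap (background 6.12%). The hypothalamic neuron markers, which include Avp and Oxt, summed to 307 to 447 CPM and 244 to 290 CPM. Of 6 tested, 2 (Avp and Oxt) were higher without overlap (background 6.12%). None of these genes was called.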
